A study of Danio rerio with 4 samples.

Results

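Injured zebrafish retina from fish kept in valproic acid (VPA), which blocks histone deacetylases, was compared with uninjured retina. The members are all transcripts that the authors listed as differing between these groups: 1069 transcripts, 623 listed higher and 446 listed lower, of 3154 entries deposited for the whole series. Whole retinae of wild type fish aged 10 months had been sequenced in every group. The group called 4 dpi + VPA was taken 4 days after injury, and its fish had been in water with 100 µM VPA over 4 days. The uninjured fish had neither the injury nor the drug. No group of this series had the drug without the injury, so what follows the injury and what follows the drug cannot be told apart in this comparison. The kind of injury is not stated in the labels. Each group was 1 GEO sample with 1 value per transcript, although the design text mentions duplicates, so there was no spread between replicates and no difference below was tested or has a replicate check.

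Teleost fish rebuild the retina after damage. Müller glia, the support cells that span the retina, reprogramme and divide, and their progeny become new neurons, while microglia and other phagocytes clear dying cells and ganglion cells regrow axons. Histone acetylation, which loosens chromatin, is set by acetyltransferases and removed by deacetylases, and VPA blocks the removal.

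Levels are in FPKM, fragment counts per length of transcript and per mapped fragments. Of the transcripts listed higher 53.1%, and of those listed lower 55.2%, came from genes with more than 1 annotated transcript. Unless stated, a level given for such a gene is that of the listed transcript and not of the whole gene. A log2 change is log2 of the FPKM at 4 dpi + VPA plus 0.1, over the FPKM in uninjured retina plus 0.1. Every listed transcript had an unadjusted p of at most 0.05 and more than 1 FPKM in the higher group in the authors' deposited table, and a gene that is not listed had either missed that filter or not been measured. The lowest p in the authors' deposited table was 5e-05 with q = 0.0717, shared by 40 transcripts listed higher and 1 listed lower, and the authors marked 0 transcripts as significant. At q = 0.997 stood 919 of the transcripts. Depth per library is unknown. In whole retina, fewer cells of a type and less RNA per cell cannot be told apart. Of 34 marker genes for the cell types a retina sample could hold, 9 were listed. These were *gfap*, *gap43*, *mpeg1.1*, *apoc1*, *csf1ra*, *cryaa* and *krt4*, all higher, and *trpm1b* and *mbpa*, both lower. The rod and cone markers, such as *rho* and *gnat2*, were not listed.

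Transcripts listed higher made up 58.3% of the list and those listed lower 41.7%. Of the higher ones, 470 reached 0.1 FPKM in both groups and had a median log2 change of 2.36, which is 5.15-fold, with quartiles of 1.92 and 3.0. Of the lower ones, 413 reached 0.1 FPKM in both groups, with a median of -1.97, a 3.92-fold lower level, and quartiles of -2.36 and -1.73. A log2 change of at least 2 was met by 37.1% of these 883 transcripts, and one of -2 or less by 21.6%. The remaining 186 transcripts, 17.4% of the list, had under 0.1 FPKM in 1 group and are described apart as on/off transcripts. By gene name, 595 genes were listed only higher and 439 only lower.

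**Figure D1:**
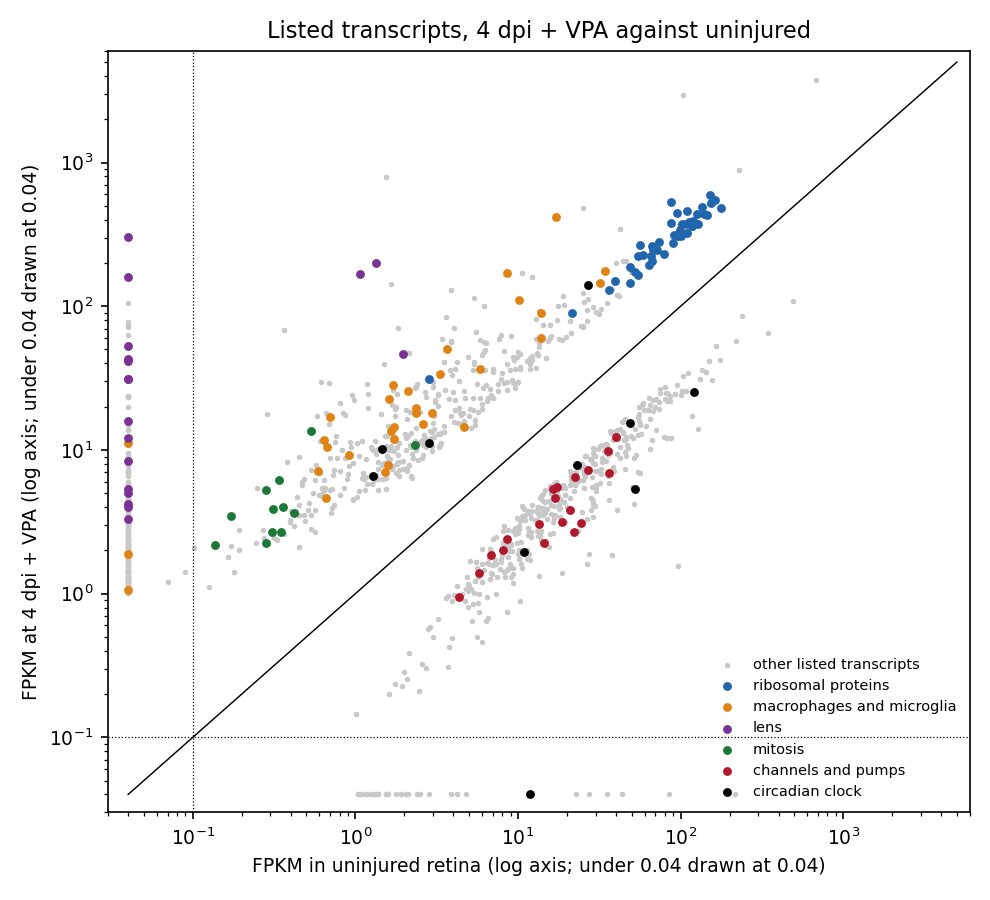
Each point is 1 of the 1069 listed transcripts, with FPKM at 4 dpi + VPA on the vertical axis and FPKM in uninjured retina on the horizontal axis, both on log axes, and dotted lines at 0.1 FPKM. Macrophage, mitosis and ribosomal protein transcripts lie above the line of equality, members of the channel and pump list below it, and 15 of the 18 lens transcripts stand at the left edge, listed at 0 in uninjured retina.

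The highest changes belonged to a fatty acid binding protein, a protease, complement, crystallins and stress proteins. *fabp11a*, a fatty acid binding protein gene, had 792 FPKM at 4 dpi + VPA against 1.54 FPKM in uninjured retina, a log2 change of 8.92. It lies on chromosome 19 of GRCz10 from 32579389 to 32581848. *mmp9*, a matrix protease that cleaves gelatin, had 67.8 FPKM at 4 dpi + VPA and 0.363 FPKM in uninjured retina (log2 change 7.20). *C7 (1 to many)*, named by the table after a complement component of the membrane attack complex, had 144 FPKM at 4 dpi + VPA and 1.64 FPKM in uninjured retina, and *C4A*, a complement gene of the classical pathway, had 17.7 FPKM at 4 dpi + VPA against 0.284 FPKM in uninjured retina. *cryabb*, a small heat shock protein gene, had 29.4 FPKM at 4 dpi + VPA against 0.688 FPKM in uninjured retina. *anxa2a*, an annexin that binds membranes, had 129 FPKM at 4 dpi + VPA against 3.85 FPKM in uninjured retina (log2 change 5.03), with p = 5e-05 and q = 0.0717 in the authors' deposited table. The alpha tubulin gene *tuba8l* had 70.32 FPKM at 4 dpi + VPA against 1.82 FPKM in uninjured retina, and *mych*, a transcription factor of the Myc family, had 17.3 FPKM at 4 dpi + VPA against 0.579 FPKM in uninjured retina.

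The lowest changes of named transcripts were smaller in size and belonged, among others, to genes of the visual cycle, the clock and photoreceptors. The 1 listed transcript of *thumpd3*, of 8 annotated, had 1.61 FPKM at 4 dpi + VPA against 26.6 FPKM in uninjured retina, a log2 change of -3.97. *RDH13 (1 to many)*, named after a retinol dehydrogenase, had 1.88 FPKM at 4 dpi + VPA against 27.2 FPKM in uninjured retina, and *rdh5*, a retinol dehydrogenase of the visual cycle, had 3.42 FPKM at 4 dpi + VPA against 28.8 FPKM in uninjured retina. *guca1e*, a calcium-sensing activator of guanylate cyclase, was listed with a pair of transcripts, at 3.79 and 4.51 FPKM at 4 dpi + VPA against 40.6 and 36.5 FPKM in uninjured retina. *fabp1a*, a fatty acid binding protein gene of the liver type, moved opposite to *fabp11a*, at 4.17 FPKM at 4 dpi + VPA against 51.5 FPKM in uninjured retina. For *per2*, a repressor of the circadian clock, the 1 listed transcript of 5 annotated had 5.38 FPKM at 4 dpi + VPA against 52.1 FPKM in uninjured retina (log2 change -3.25). *cyp19a1b*, named after the brain aromatase but given as an unprocessed pseudogene in the table, had 0.647 FPKM at 4 dpi + VPA against 6.36 FPKM in uninjured retina. The most abundant transcript of this direction under the naming rule was *esrrd*, an estrogen-related nuclear receptor, at 64.7 FPKM at 4 dpi + VPA and 344 FPKM in uninjured retina.

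**Figure D2:**
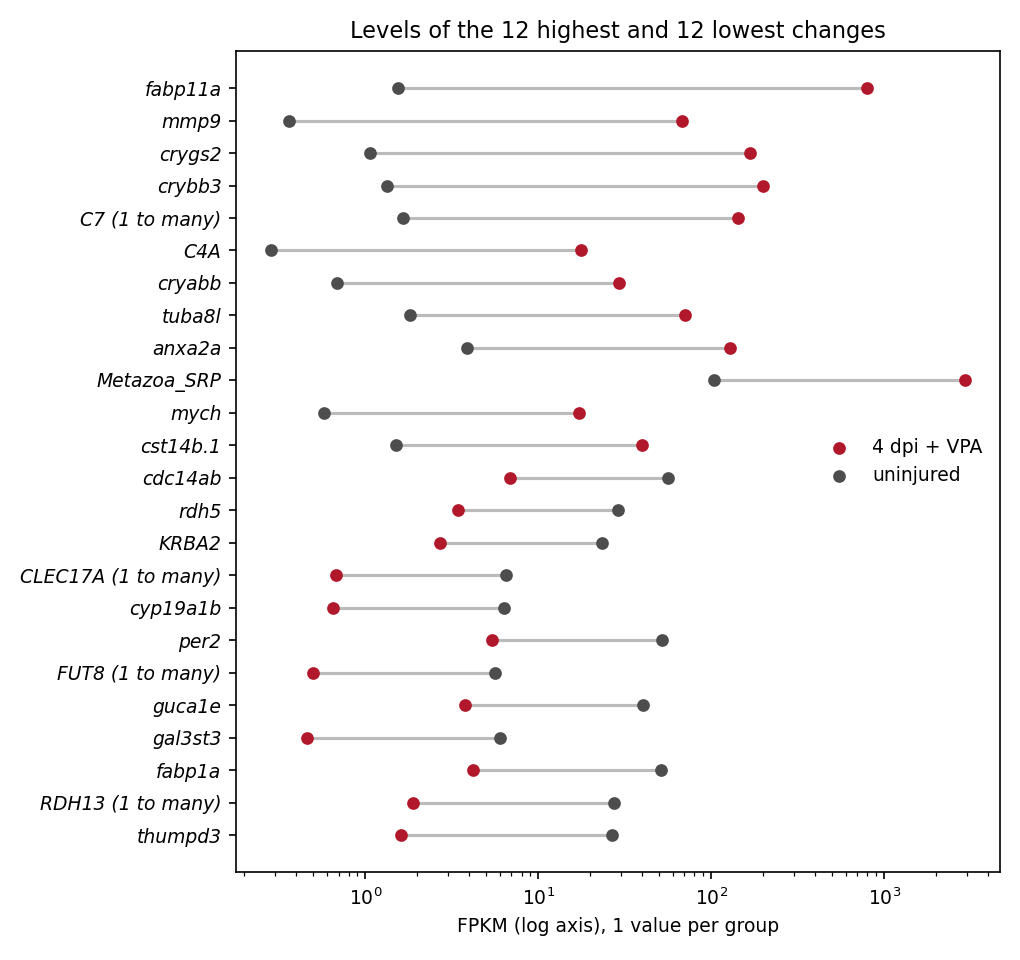
FPKM on a log axis for the 12 highest and the 12 lowest log2 changes among named transcripts with at least 0.1 FPKM in both groups and at least 5 FPKM in the higher one, with red points for 4 dpi + VPA and grey points for uninjured retina. The upper genes reach up to 2933 FPKM at 4 dpi + VPA, and the span between the points is widest for *fabp11a*, at 792 and 1.54 FPKM.

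All listed members of the regeneration list were on the higher side. Of 79 regeneration-associated factors, 15 were listed, 15 higher and 0 lower, with a median log2 change of 3.21 beside 2.36 for all higher transcripts. Of all listed transcripts, 58.3% were higher, and the list was written with earlier results of these data known. *hbegfa*, a growth factor that acts on the epidermal growth factor receptor, had 4.97 FPKM at 4 dpi + VPA against 0.621 FPKM in uninjured retina. *crlf1a*, a cytokine receptor-like factor, had 18 FPKM at 4 dpi + VPA against 0.659 FPKM in uninjured retina, and *socs3b*, a feedback inhibitor of cytokine signalling, had 28.9 FPKM at 4 dpi + VPA against 2.39 FPKM in uninjured retina. *sox11b*, a SoxC transcription factor of developing neurons, had 46.1 FPKM at 4 dpi + VPA against 6.0 FPKM in uninjured retina. The brain-type fatty acid binding protein gene *fabp7a*, a marker of progenitors and radial glia, had 479 FPKM at 4 dpi + VPA against 25 FPKM in uninjured retina (log2 change 4.26). *txn*, a thioredoxin gene, had 71.1 FPKM at 4 dpi + VPA against 4.06 FPKM in uninjured retina, *mycb* 23.2 FPKM at 4 dpi + VPA against 5.25 FPKM in uninjured retina, and *mmp14b*, a membrane-bound matrix protease, 8.85 FPKM at 4 dpi + VPA against 0.869 FPKM in uninjured retina. The remaining ones were *mmp9*, *mych*, *gap43*, *ttk*, *tuba1a*, *tgfbi* and *tuba1b*, of which *tuba1b* had the smallest change, at 73.0 FPKM at 4 dpi + VPA against 25.2 FPKM in uninjured retina (log2 change 1.53). Of 38 genes of the Notch pathway, *neurl1aa*, a ubiquitin ligase gene of the Neuralized family, was the 1 listed, at 32.5 FPKM at 4 dpi + VPA against 104 FPKM in uninjured retina.

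The listed members of the mitosis and DNA replication lists were all higher, at low levels, beside 58.3% higher among all listed transcripts. Of 65 genes of mitosis, 12 were listed and all were higher (median log2 change 3.22), and of 57 genes of DNA replication and nucleotide supply, 6 were listed and all were higher (median 2.55). *mki67*, expressed in cycling cells, had 6.22 FPKM at 4 dpi + VPA against 0.339 FPKM in uninjured retina. *kpna2*, a nuclear import receptor, had 13.5 FPKM at 4 dpi + VPA against 0.530 FPKM in uninjured retina, and *smc2*, a condensin subunit, had 5.26 FPKM at 4 dpi + VPA against 0.282 FPKM in uninjured retina. The cytokinesis gene *anln* had 3.47 FPKM at 4 dpi + VPA against 0.171 FPKM in uninjured retina. *mcm5* and *mcm4*, subunits of the replicative helicase, had 8.93 and 7.90 FPKM at 4 dpi + VPA against 0.448 and 0.568 FPKM in uninjured retina. *rrm1*, a subunit of ribonucleotide reductase, had 12.1 FPKM at 4 dpi + VPA, the highest of the replication list, against 2.93 FPKM in uninjured retina. The 12 mitosis transcripts together summed to 60.6 FPKM at 4 dpi + VPA and 5.80 FPKM in uninjured retina. Other genes named for the cell cycle, outside both lists and chosen after their values were seen, were lower: *cdc14ab*, a phosphatase gene, had 6.90 FPKM at 4 dpi + VPA against 56.4 FPKM in uninjured retina, and *cdk10*, a kinase gene, had 12.3 FPKM at 4 dpi + VPA against 45.9 FPKM in uninjured retina.

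Stress-induced transcription factors were mostly higher. Of 64 on that list, 10 were higher and 2 lower, beside 58.3% higher among all listed transcripts. *atf3*, a transcription factor of the stress response, had 24.2 FPKM at 4 dpi + VPA against 0.952 FPKM in uninjured retina, and *jun*, an AP-1 subunit, had 101 FPKM at 4 dpi + VPA against 6.21 FPKM in uninjured retina, with p = 5e-05 and q = 0.0717 for *jun* in the authors' deposited table. *cebpb*, a C/EBP family transcription factor, had 17.4 FPKM at 4 dpi + VPA against 0.861 FPKM in uninjured retina. Both exceptions are genes that neuronal activity induces: *npas4a* had 0.842 FPKM at 4 dpi + VPA against 5.30 FPKM in uninjured retina, and *egr1* had 13.3 FPKM at 4 dpi + VPA against 37.8 FPKM in uninjured retina.

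The listed members of the immune lists were all higher, beside 58.3% higher among all listed transcripts. Outside these lists and chosen after its values were seen, *IL1RL1*, named after an interleukin receptor-like gene, was lower (log2 fold change -2.25 in the authors' deposited table). Of 73 macrophage and microglia genes, 30 genes were listed with 32 transcripts, all higher, with a median log2 change of 2.99. *apoc1*, an apolipoprotein gene that microglia express, had 421 and 171 FPKM for its transcripts at 4 dpi + VPA against 17.2 and 8.54 FPKM in uninjured retina. *rac2*, a small GTPase of blood cells, had 17.0 FPKM at 4 dpi + VPA against 0.698 FPKM in uninjured retina. Among members outside the naming rule, chosen after their values were seen, the macrophage pore-forming gene *mpeg1.1* had 19.7 FPKM at 4 dpi + VPA against 2.37 FPKM in uninjured retina, the complement gene *c1qc* 28.3 FPKM at 4 dpi + VPA against 1.69 FPKM in uninjured retina, and the lysosomal protease genes *ctsla* and *lgmn* 175 and 146 FPKM at 4 dpi + VPA against 34.3 and 32.0 FPKM in uninjured retina. The smallest change of the list was that of *csf1ra*, a growth factor receptor of macrophages and pigment cells, at 14.4 FPKM at 4 dpi + VPA against 4.64 FPKM in uninjured retina. The list as a whole summed to 1586 FPKM at 4 dpi + VPA and 175 FPKM in uninjured retina, and the part of phagocyte number in this sum was not tested.

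Of 67 genes of inflammatory signalling 13 were listed, of 70 interferon and antigen presentation genes 13, and of 25 neutrophil genes 7 with 8 transcripts, all higher. The chemokine gene *ccl34a.4* had 31.1 FPKM at 4 dpi + VPA and was listed at 0 in uninjured retina. *isg15*, a ubiquitin-like protein induced by interferon, had 66.0 FPKM at 4 dpi + VPA against 5.49 FPKM in uninjured retina. *PSMB10* and *psme1*, parts of the immunoproteasome and its activator, had 24.1 and 33.4 FPKM at 4 dpi + VPA against 3.22 and 3.93 FPKM in uninjured retina. Of the neutrophil list, *lect2l*, a chemotaxin-like gene, had 9.0 FPKM at 4 dpi + VPA and was listed at 0 in uninjured retina, while the neutrophil markers *mpx* and *lyz* were not listed, and *mmp9* and *s100a10b* are also on other lists. The matrix and adhesion list had 24 transcripts of 22 genes, all higher (median 2.44), again beside 58.3% higher among all listed transcripts. Beside the protease and annexin genes, it held the fibronectin gene *fn1a*, whose transcripts had 11.5 and 2.01 FPKM at 4 dpi + VPA against 0.628 and 1.69e-05 FPKM in uninjured retina. Adhesion genes were not all higher. The cadherin gene *cdh27*, outside that list and chosen after its values were seen, was lower (log2 fold change -2.55 in the authors' deposited table). By deposited gene function terms, 5 of 5 transcripts with cell adhesion were higher, and 2 of 7 with homophilic cell adhesion.

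The listed members of the Müller glia and ganglion cell lists were higher as well, beside 58.3% higher among all listed transcripts. Of 70 Müller glia genes, 7 were listed with 8 transcripts, all higher, with a median of 2.48. Beside *fabp11a* and *fabp7a*, these held the intermediate filament genes *gfap*, at 46.3 FPKM at 4 dpi + VPA against 10.2 FPKM in uninjured retina, *vim*, at 73.9 FPKM at 4 dpi + VPA against 15.7 FPKM in uninjured retina, and *NES*, at 3.53 FPKM at 4 dpi + VPA against 0.448 FPKM in uninjured retina, named here after their values were seen. *apoeb*, an apolipoprotein gene that is also on the macrophage list, was listed with minor transcripts of 11.2 and 1.06 FPKM at 4 dpi + VPA, both listed at 0 in uninjured retina. The Müller glia markers *glula* and *rlbp1a* were not listed. Of 77 ganglion cell and axon regrowth genes, 13 were higher and 0 lower (median 2.92). *gap43*, a growth cone protein gene, had 57.1 FPKM at 4 dpi + VPA against 3.89 FPKM in uninjured retina. The alpha tubulin gene *tuba1a* had 73.8 FPKM at 4 dpi + VPA against 14.2 FPKM in uninjured retina. That list holds stress genes such as *atf3*, *jun* and *socs3b* too, so it is no separate result from those above, and the ganglion cell markers *isl2b* and *rbpms2b* were not listed.

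**Figure D3:**
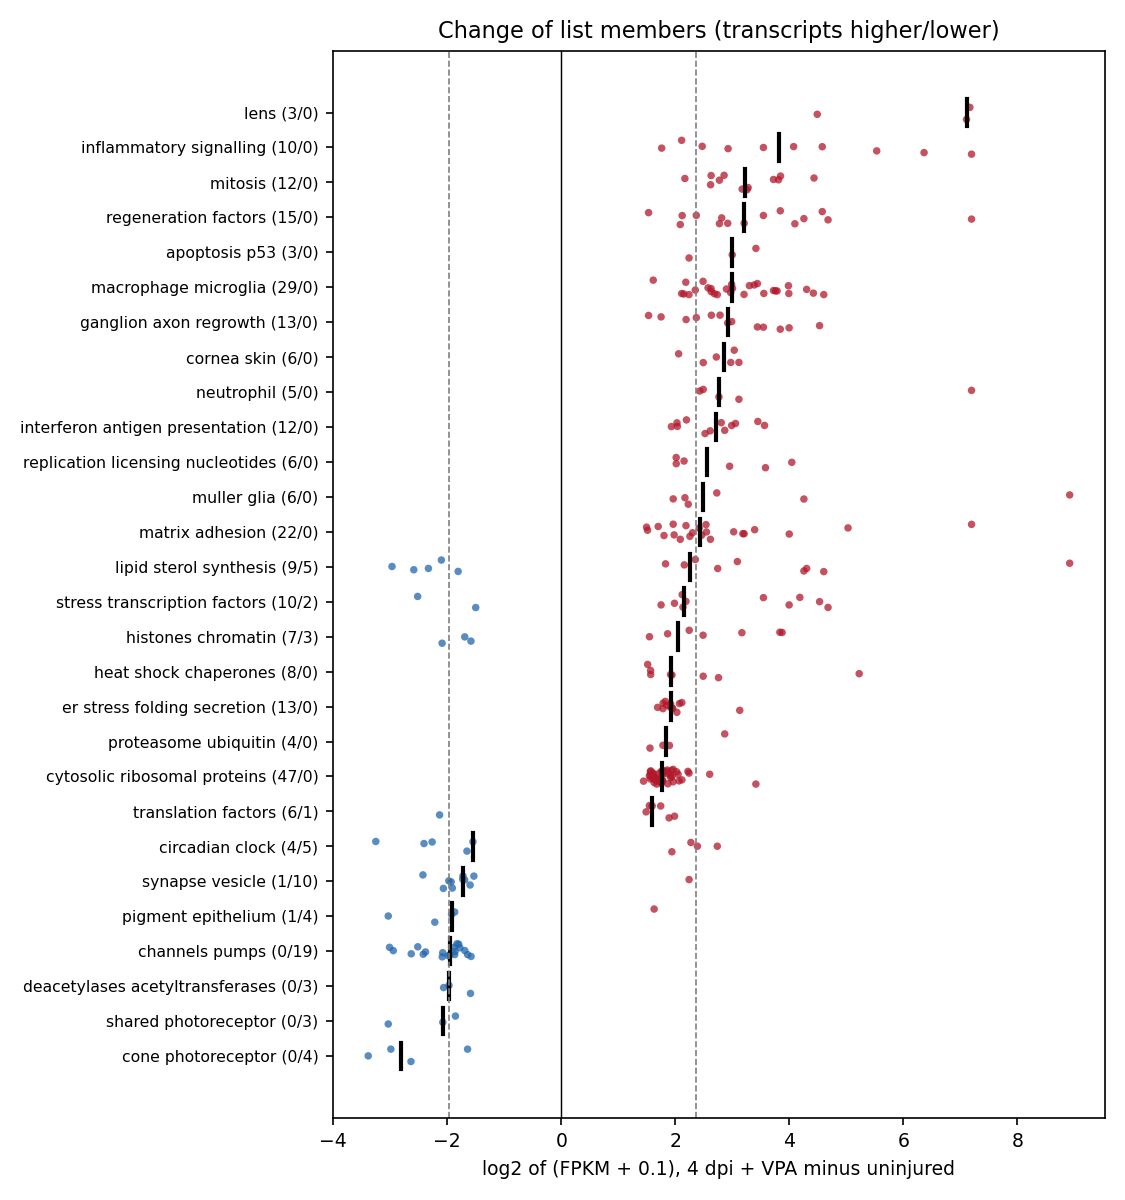
Log2 change of each member with at least 0.1 FPKM in both groups, 1 row for each of the 28 gene lists with at least 3 such transcripts, with black bars for medians, dashed lines for the medians of all higher (2.36) and all lower (-1.97) transcripts, and counts of higher and lower transcripts in brackets. The members of the immune, division and regeneration lists lie to the right of 0, and the medians of the lists of photoreceptors, channels, synapses and acetylation enzymes to the left.

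Ribosomal proteins were the largest group, and the counts here stand beside 58.3% higher among all listed transcripts. All 47 listed transcripts of cytosolic ribosomal proteins were higher, with small and even changes, a median log2 change of 1.77 and a range of 1.44 to 3.41, below the 2.36 of all higher transcripts. Together they summed to 15004 FPKM at 4 dpi + VPA and 4325 FPKM in uninjured retina. *rps29* had 594 FPKM at 4 dpi + VPA against 152 FPKM in uninjured retina, *rpl35a* 551 FPKM at 4 dpi + VPA against 163 FPKM in uninjured retina, and *rplp2l* 531 FPKM at 4 dpi + VPA against 87.3 FPKM in uninjured retina. The top change was that of *rps27.2*, at 31.1 FPKM at 4 dpi + VPA against 2.83 FPKM in uninjured retina. The pattern for this list was widened after values were seen. By deposited gene function terms, 45 transcripts with structural constituent of ribosome were higher and 1 was lower. Of 55 genes of folding and secretion in the endoplasmic reticulum 13 were listed, all higher, with a median of 1.92. *calr3b*, a calreticulin gene, had 36.6 FPKM at 4 dpi + VPA against 4.08 FPKM in uninjured retina, and *pdia3*, a disulfide isomerase, had 107 FPKM at 4 dpi + VPA against 25.4 FPKM in uninjured retina. Of 50 heat shock and chaperone genes 9 were higher and 0 lower, among them *hspb1*, a small heat shock protein, at 36.2 FPKM at 4 dpi + VPA against 5.27 FPKM in uninjured retina. Among translation factors 6 were higher, with *eif3ha* at 31.3 FPKM at 4 dpi + VPA against 7.83 FPKM in uninjured retina, and *EIF4G1 (1 to many)* was lower, at 3.56 FPKM at 4 dpi + VPA against 16.0 FPKM in uninjured retina.

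Acetyltransferases and the deacetylases, which VPA blocks, were few among the listed genes. Of 54 deacetylase and acetyltransferase genes 3 were listed, all lower, beside 41.7% lower among all listed transcripts. The loci of *hdac9b*, *crebbpa* and *kat6a* spanned 128, 87.7 and 52.5 kb. Among transcripts with at least 0.1 FPKM in both groups, 34.5% on loci of 50 to 100 kb were higher. On loci of 100 kb or more, 12.7% were higher. A part of locus length in these 3 was not tested. *hdac9b*, a class II histone deacetylase gene, lies on chromosome 16 from 20036715 to 20164548. Its 1 listed transcript, of 6 annotated, had 25.8 FPKM at 4 dpi + VPA against 102 FPKM in uninjured retina (log2 change -1.97, p = 0.0196 in the authors' deposited table). *crebbpa*, an acetyltransferase that coactivates many transcription factors, had 1.57 FPKM at 4 dpi + VPA against 6.89 FPKM in uninjured retina, and *kat6a*, a histone acetyltransferase, had 5.39 FPKM at 4 dpi + VPA against 16.5 FPKM in uninjured retina. The listed members of the histone and chromatin protein list went both ways, 9 transcripts higher and 3 lower. *HIST1H2BA (1 to many)*, a histone H2B name that the table gives to several genes, had 56.6 and 55.9 FPKM at 4 dpi + VPA at a pair of loci against 3.87 and 6.13 FPKM in uninjured retina. Near-identical histone copies can share reads, so these single loci are uncertain. The 3 lower ones on that list were *hmga1b*, *arid1b*, a subunit of a chromatin remodeller, and *kmt2bb*, a histone methyltransferase. They had 10.9, 3.60 and 5.71 FPKM at 4 dpi + VPA against 46.7, 11.9 and 17.3 FPKM in uninjured retina. Other chromatin regulator genes, outside that list and chosen after their values were seen, went both ways. *setd1a*, *arid2*, *kansl1b* and *kmt2e* were lower, with log2 fold changes of -2.69, -2.41, -2.26 and -1.92 in the authors' deposited table. *uhrf1*, which is on the replication list, and *carm1l* were higher, with log2 fold changes of 3.21 and inf there. By deposited gene function terms, 7 transcripts with chromatin binding were higher and 5 lower.

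Few members of the photoreceptor lists were listed, most of them lower, beside 41.7% lower among all listed transcripts. Of 68 genes shared by rods and cones 4 were lower, of 44 cone genes 3 with 4 transcripts were lower, and the rod list had 1 of 32 genes on each side. *rcvrna*, a recoverin gene of the light response, had 85.7 FPKM at 4 dpi + VPA against 237 FPKM in uninjured retina. *guca1d* had 52.7 FPKM at 4 dpi + VPA against 165 FPKM in uninjured retina, *impdh1a*, an enzyme of guanine nucleotide synthesis, had 41.4 FPKM at 4 dpi + VPA against 150 FPKM in uninjured retina, and *grk7b*, a cone opsin kinase, had 1.74 FPKM at 4 dpi + VPA against 11.4 FPKM in uninjured retina. *nr2e3*, a nuclear receptor of photoreceptor fate, went the other way, at 43.6 FPKM at 4 dpi + VPA against 11.9 FPKM in uninjured retina (log2 change 1.86). A transcript of *pde6g*, a phosphodiesterase subunit gene of the light response that is on none of these lists and was chosen after its values were seen, had 1.51 FPKM at 4 dpi + VPA and was listed at 0 in uninjured retina. *trpm1b*, a cation channel of bipolar cells and pigment cells, had 9.77 FPKM at 4 dpi + VPA against 36 FPKM in uninjured retina. Of the pigment epithelium list 4 were lower, with *rgra*, an opsin-like photoisomerase, at 21.8 FPKM at 4 dpi + VPA against 82.9 FPKM in uninjured retina, and *pmelb*, a melanosome gene, was higher at 58.2 FPKM at 4 dpi + VPA against 18.7 FPKM in uninjured retina.

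The listed members of the channel and synapse lists were mostly lower, beside 41.7% lower among all listed transcripts. The channel and pump list held families of potassium, sodium, calcium, chloride and other cation channels, ATP-driven ion pumps and sodium-calcium exchangers, and all 19 of its listed members were lower, with a median of -1.95 and a range of -3.01 to -1.58, near the -1.97 of all lower transcripts. Some channel and pump genes outside that list, chosen after their values were seen, were higher. *clic2*, a gene of the chloride intracellular channel family, had 13 FPKM at 4 dpi + VPA against 2.01 FPKM in uninjured retina. The proton pump subunit gene *tcirg1b* had a log2 fold change of 2.25 in the authors' deposited table. By deposited gene function terms, 3 transcripts with chloride channel activity were higher and 2 lower. *slc8a2b*, a sodium-calcium exchanger, had 2.67 FPKM at 4 dpi + VPA against 22.2 FPKM in uninjured retina, and *RYR2*, a calcium release channel, had 3.08 FPKM at 4 dpi + VPA against 24.4 FPKM in uninjured retina. The potassium channel gene *KCNK4* had 2.24 FPKM at 4 dpi + VPA against 14.4 FPKM in uninjured retina, and the calcium channel subunit gene *CACNA2D2 (1 to many)* had 3.17 FPKM at 4 dpi + VPA against 18.6 FPKM in uninjured retina. Of 97 synapse and vesicle genes 10 were lower and 1, *sypl2b*, was higher. The presynaptic adhesion genes *nrxn2b* and *nrxn2a* had 1.31 and 2.70 FPKM at 4 dpi + VPA against 7.47 and 11.6 FPKM in uninjured retina, and *gria4a*, a glutamate receptor subunit, had 4.56 FPKM at 4 dpi + VPA against 18.2 FPKM in uninjured retina. The listed members lay on long loci, and a locus can take in overlapping genes. The median locus in the table was 121 kb for the channel and pump list and 94.3 kb for the synapse list, beside 5.27 kb for the ribosomal proteins.

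Locus length moved with direction over the whole list. Among transcripts with at least 0.1 FPKM in both groups, those listed higher lay on loci with a median of 12.4 kb and those listed lower on loci with a median of 36.4 kb. A locus above 50 kb held 11.5% of the higher and 41.6% of the lower ones. Of transcripts on loci under 2 kb, 77.4% were higher, and of those on loci of 100 kb or more, 12.7% were higher. The median log2 change of the higher ones was 3.24 on loci under 2 kb and between 2.1 and 2.43 in the 6 classes of longer loci. A part of length or RNA quality in any of the groups above was not tested.

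**Figure D4:**
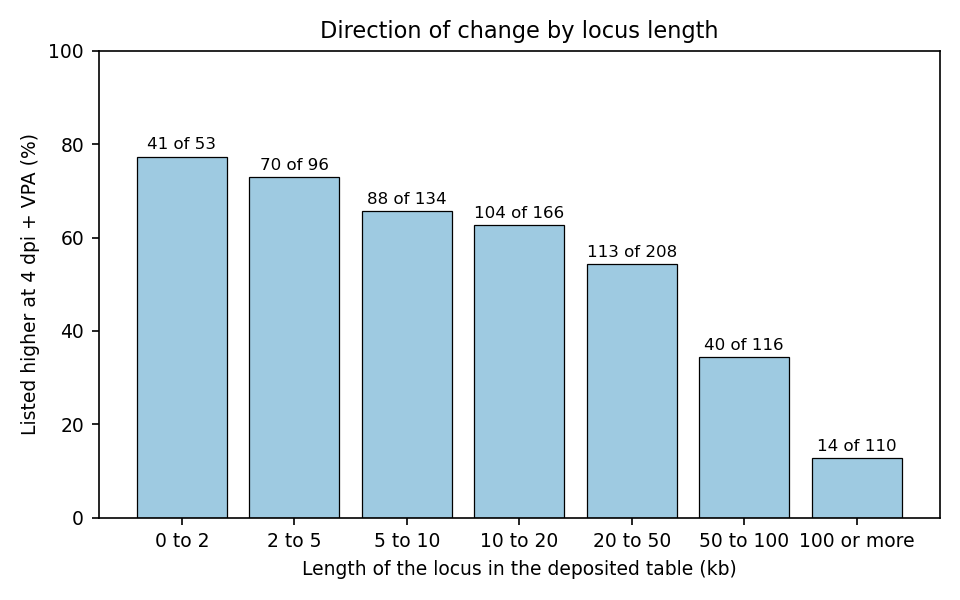
Percent of transcripts with at least 0.1 FPKM in both groups that were listed higher at 4 dpi + VPA, by the length of the locus in the deposited table in kb, with the count above each bar. The share goes down with every step in length, 41 of 53 under 2 kb and 14 of 110 at 100 kb or more.

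Listed members of the clock and lipid lists went both ways, as did the whole list, with 58.3% higher and 41.7% lower. Of 60 clock genes, 4 were higher and 6 lower. *per2*, *per3*, *cry1ab*, *cry-dash* and *nr1d1* were lower, with *per3* at 25.2 FPKM at 4 dpi + VPA against 121 FPKM in uninjured retina and *nr1d1*, a Rev-erb repressor, at 15.5 FPKM at 4 dpi + VPA against 49.0 FPKM in uninjured retina. The sixth was 1 transcript of *nr1d2a*, of 4 annotated, listed at 0 at 4 dpi + VPA against 11.8 FPKM in uninjured retina. A part of the time of day at sampling in the clock values was not tested. Higher were *nr1d4b* and *nr1d4a*, other Rev-erb family genes, at 10.2 and 6.59 FPKM at 4 dpi + VPA against 1.45 and 1.28 FPKM in uninjured retina, *nfil3*, and *aanat2*, which makes the melatonin precursor, at 141 FPKM at 4 dpi + VPA against 26.8 FPKM in uninjured retina. In the lipid list of 76 genes, 9 genes were higher and 5 lower. The higher side held *abca1b*, a cholesterol efflux pump, at 6.22 FPKM at 4 dpi + VPA against 0.643 FPKM in uninjured retina, and *npc2*, a lysosomal sterol carrier, at 28.8 FPKM at 4 dpi + VPA against 5.57 FPKM in uninjured retina. On the lower side stood *fdft1* and *sqlea*, enzymes of sterol synthesis, at 3.31 and 0.861 FPKM at 4 dpi + VPA against 26.6 and 5.67 FPKM in uninjured retina, *srebf1*, a regulator of lipid synthesis genes, at 12.6 FPKM at 4 dpi + VPA against 54.6 FPKM in uninjured retina, the lipoprotein receptor gene *ldlrb* at 1.26 FPKM at 4 dpi + VPA against 6.75 FPKM in uninjured retina, and *LPIN1 (1 to many)*. The lipid members beyond the naming rule were chosen after their values were seen.

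Among on/off transcripts, 153 were above 0.1 FPKM at 4 dpi + VPA alone and 33 in uninjured retina alone. Of the 153, 122 were listed at 0 in uninjured retina, and of the 33, 22 were listed at 0 at 4 dpi + VPA. A transcript listed at 0 may be a failed estimate: minor transcripts of the housekeeping genes *actb1* and *hspa8* were also listed at 0 in uninjured retina, beside 1.13 and 2.12 FPKM at 4 dpi + VPA. Nearly all on/off transcripts with a value above 0 in the lower group came from genes with more than 1 annotated transcript, 30 of 31 higher (96.8%) and 11 of 11 lower (100.0%), while 52.3% and 55.0% of the transcripts in both groups did. For example, a transcript of *irf9*, an interferon response factor, had 13.8 FPKM at 4 dpi + VPA and 0.000442 FPKM in uninjured retina. The transcripts listed at 0 went the other way, with 45.1% of the higher and 36.4% of the lower ones from such genes. Just inside the limit of 0.1 FPKM stood *dctd*, at 2.08 FPKM at 4 dpi + VPA and 0.102 FPKM in uninjured retina, and just outside it *ntd5*, at 1.40 FPKM at 4 dpi + VPA and 0.0898 FPKM in uninjured retina.

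Crystallins led the on/off transcripts. The lens list had 18 transcripts of 16 genes, all higher, beside 58.3% higher among all listed transcripts. Of these 18, 15 were listed at 0 in uninjured retina. *crygm3* had 304 FPKM at 4 dpi + VPA, *crygs4* 161 FPKM, *crygm2b* 52.7 FPKM, *crygn1* 42.7 FPKM and *cryaa* 41.8 FPKM, all structural proteins of the lens and all listed at 0 in uninjured retina. The 3 with values in both groups were *crybb3*, at 198 FPKM at 4 dpi + VPA against 1.34 FPKM in uninjured retina, *crygs2*, at 168 FPKM at 4 dpi + VPA against 1.07 FPKM in uninjured retina, and *cryba4*, at 46.3 FPKM at 4 dpi + VPA against 1.97 FPKM in uninjured retina. The lens fibre genes *lim2.1*, *lim2.3*, *lim2.4* and *cx44.1* had 5.36, 4.02, 4.22 and 8.37 FPKM at 4 dpi + VPA and were listed at 0 in uninjured retina. Over the list the sum was 1136 FPKM at 4 dpi + VPA and 4.38 FPKM in uninjured retina. Lens transcripts made up 12 of the 40 higher transcripts at the lowest p in the authors' deposited table, and 37 of those 40 were listed at 0 in uninjured retina. Among all 623 higher transcripts, 18 were lens transcripts and 19.6% were listed at 0 in uninjured retina. For lens transcripts listed at 0, such as *cryaa*, the authors gave an infinite fold change and no usable test statistic, so this count is no separate result. Genes of cornea and skin were higher too, 7 transcripts of 6 genes with a sum of 675 FPKM at 4 dpi + VPA and 101 FPKM in uninjured retina. Among these were the keratin genes *krt18*, at 49.6 FPKM at 4 dpi + VPA against 6.23 FPKM in uninjured retina, and *krt4*, at 9.34 FPKM at 4 dpi + VPA against 1.33 FPKM in uninjured retina. The part of tissue other than retina in these values was not tested.

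Small noncoding RNAs were also among the on/off transcripts. All 13 entries named *Metazoa_SRP*, the RNA of the signal recognition particle, were higher, and 8 were listed at 0 in uninjured retina. The most abundant had 3738 FPKM at 4 dpi + VPA against 678 FPKM in uninjured retina, the highest level of any listed transcript, and the next 2933 FPKM at 4 dpi + VPA against 104 FPKM in uninjured retina. Reads of these near-identical copies may have been split among loci, so single entries are uncertain. The microRNA precursor entries *dre-let-7a-3* and *dre-mir-96* were listed at 0 at 4 dpi + VPA, against 85.3 and 22.8 FPKM in uninjured retina, while *dre-mir-21-2* had 40.2 FPKM at 4 dpi + VPA and was listed at 0 in uninjured retina. On the lower side, *impg2b*, a proteoglycan of the matrix around photoreceptors, was listed at 0 at 4 dpi + VPA against 27.2 FPKM in uninjured retina, and *nova2*, a neuronal splicing regulator, was at 0 against 4.23 FPKM in uninjured retina, each for 1 transcript of the gene.

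Few members of the remaining lists were listed, and their counts stand beside 58.3% higher and 41.7% lower among all listed transcripts. Of 49 genes of apoptosis and p53, 3 were higher and 0 lower. The death receptor gene *fas* had 9.06 FPKM at 4 dpi + VPA against 1.05 FPKM in uninjured retina. *cflara* had 10.0 FPKM at 4 dpi + VPA against 2.04 FPKM in uninjured retina. The third member was *rps27.2*, and the proteasome and ubiquitin list held *rps27a*, both counted with the ribosomal proteins above. The proteasome and ubiquitin list, which held mainly proteasome subunits and ubiquitin genes and no ubiquitin ligases, had 4 members higher and 0 lower, and the growth signalling list 3 higher and 0 lower. The deubiquitinase gene *usp2b*, outside that list and chosen after its values were seen, was lower, at 5.72 FPKM at 4 dpi + VPA against 30.3 FPKM in uninjured retina. The Wnt receptor gene *fzd2* had 6.51 FPKM at 4 dpi + VPA against 1.16 FPKM in uninjured retina. The glycolysis list had *hk2*, a hexokinase gene, higher at 5.03 FPKM at 4 dpi + VPA against 0.552 FPKM in uninjured retina, and a minor transcript of *eno1a* listed at 0 at 4 dpi + VPA. On the oligodendrocyte list, the alpha tubulin gene *tuba8l* was higher. The 1 listed transcript of *cnp*, of 8 annotated, had 5.65 FPKM at 4 dpi + VPA and was listed at 0 in uninjured retina. The 1 listed transcript of *mbpa*, a myelin protein gene with 11 annotated transcripts, was lower at 5.89 FPKM at 4 dpi + VPA against 36.3 FPKM in uninjured retina. The muscle list held *tnni2a.2*, a troponin gene, lower at 34.7 FPKM at 4 dpi + VPA against 143 FPKM in uninjured retina. The lists for oxidative phosphorylation, amacrine and horizontal cells, red blood cells, and endothelium and pericytes had 0 listed members.

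A few genes were listed with more than 1 transcript, 17 gene IDs in all, and in 16 of these the transcripts went the same way. *mvp*, a vault protein gene, had 22.2 and 17.3 FPKM at 4 dpi + VPA against 0.974 and 1.76 FPKM in uninjured retina, and *pfkfb4b*, a regulator of glycolysis, had 6.99 and 12.2 FPKM at 4 dpi + VPA against 54.4 and 82.1 FPKM in uninjured retina. *nadka*, a NAD kinase gene, was the exception: 1 transcript had 2.13 FPKM at 4 dpi + VPA and was listed at 0 in uninjured retina, and the other was listed at 0 at 4 dpi + VPA against 1.54 FPKM in uninjured retina. *MAP4 (1 to many)*, a microtubule-associated protein name, covers a pair of gene IDs, of which that on chromosome 24 had 5.15 FPKM at 4 dpi + VPA against 30.1 FPKM in uninjured retina, and that on chromosome 2 had 3.82 FPKM at 4 dpi + VPA and was listed at 0 in uninjured retina.

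The gene function terms deposited beside the transcripts give the same members in another grouping. Of 804 transcripts with a term, 60.1% were higher. All 15 transcripts with the term immune response were higher, as were all 12 with protein folding, all 10 with regulation of cell cycle and all 9 with lysosome. The 8 with innate immune response were mixed, 5 higher and 3 lower. Of 24 with nucleic acid binding, 3 were higher and 21 lower, and of 12 with G-protein coupled receptor activity, 2 were higher and 10 lower. These terms were chosen after their values were seen.

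The other injured groups of the series, 12 hours after injury (12 hpi) and 4 days after injury without the drug (4 dpi), were set against the same uninjured sample by the authors, and the 4 dpi values are for genes and not transcripts. For genes whose deposited uninjured value is the same in all tables, the values are given side by side. Some of these have more than 1 annotated transcript, such as *mmp9* with 2 and *jun* with 3. For them the 4 dpi value covers the whole gene and the other values 1 transcript, so these are unlike measures. *fabp11a* had 1.54 FPKM in uninjured retina, 93.6 FPKM at 12 hpi, 135 FPKM at 4 dpi and 792 FPKM at 4 dpi + VPA. *mmp9* had 0.363, 47.8, 85.7 and 67.8 FPKM in the same order, and *jun* had 6.21, 147, 90.9 and 101 FPKM. The lens gene *crybb3* had 1.34, 121, 58.8 and 198 FPKM, so crystallin transcripts were present after injury without the drug too. Values at 4 dpi and 4 dpi + VPA were close for some genes of this set and apart for others. In that order, *atf3* had 26.6 and 24.2 FPKM, *psme1* 33.1 and 33.4 FPKM, and *crygs2* 69.2 and 168 FPKM. *mki67* is outside this set, because it was not listed at 12 hpi, and was chosen after its values were seen. *mki67* had 0.339 FPKM in uninjured retina, 23.6 FPKM at 4 dpi and 6.22 FPKM at 4 dpi + VPA. *gal3st3*, a sulfotransferase gene, had 6.04 FPKM in uninjured retina, 1.41 FPKM at 12 hpi, 0.398 FPKM at 4 dpi and 0.457 FPKM at 4 dpi + VPA. With 1 value per group, a difference between the drug and no drug 4 days after injury was not tested.

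**Figure D5:**
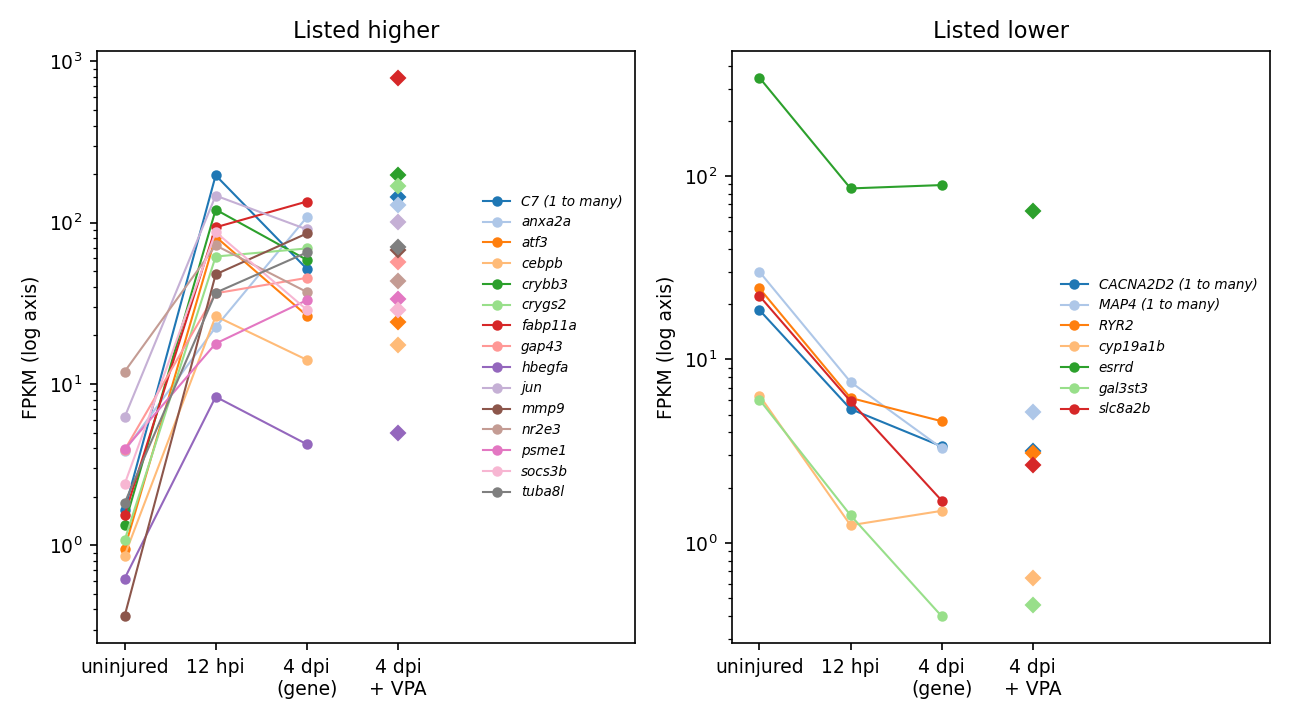
FPKM on a log axis for the 22 genes of the naming rule that were listed in all 3 comparisons with the same uninjured value of at least 0.1 FPKM, with lines through uninjured, 12 hpi and 4 dpi (values for genes) and diamonds for 4 dpi + VPA. The diamonds of genes listed higher lie above the uninjured values and those of genes listed lower under them, and the highest diamond is *fabp11a* at 792 FPKM.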

How the data were processed

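Both tables of 4 dpi + VPA against uninjured retina were read, 1 row per transcript, with groups from the labels. The authors deposited FPKM values, 1 per group, together with their log2 fold change, a test statistic (a score), a p-value and a q-value, per the file headers. Bowtie2 2.2.2, TopHat2 2.1.0 and Cufflinks 2.2.1 with genome build GRCz10 are named in the submitters' processing notes. The deposited p-values and q-values were kept as the authors gave them. Log2 changes were recomputed with a pseudocount of 0.1 FPKM, and transcripts under 0.1 FPKM in 1 group were kept apart. A fold change on this scale understates the change of transcripts at low levels. With 1 value per group no test was run, and depth and replicate error are unknown. Since the tables are filtered, the percentages given are shares of listed transcripts, not of all transcripts measured.

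The 40 gene lists and the members were chosen with earlier results of these data known. Lists were matched by symbol, and 950 of 1051 gene IDs were found in a table of current symbols. One entry was taken off the cone list after values were seen, because the RefSeq table (assembly GRCz12tu) names it a cystatin, and the pattern for ribosomal proteins was widened after values were seen. Lists overlap, so they are not independent. Named genes were the 12 highest and 12 lowest log2 changes with at least 5 FPKM in the higher group, the 8 most abundant on/off and 6 most abundant transcripts of each direction, up to 4 members per list with the largest change, all listed regeneration factors and acetylation enzymes, and genes listed in both directions, leaving out clone names. Coordinates are those of the deposited tables, with starts counted from 1, and a locus can take in overlapping genes. Scripts used Python 3.11.15, pandas 2.3.3 and matplotlib 3.10.9 and were tested on simulated data.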

Additional observations from a re-analysis of the deposited data

Results flagged for a closer look

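A few genes were listed lower at 4 dpi + VPA and higher in another injured group, against the same uninjured sample, and these differences were not tested. *agrp2*, an agouti-related peptide gene, had 1.38 FPKM at 4 dpi + VPA and 19 FPKM at 12 hpi, beside 6.90 FPKM in uninjured retina. The transcript named *CABZ01111555.1* had 4.01 FPKM at 4 dpi + VPA and 97.3 FPKM at 12 hpi, beside 19.9 FPKM in uninjured retina. For *cdc25b*, a phosphatase gene of the cell cycle, the listed transcript had 0.000225 FPKM at 4 dpi + VPA and 1.37 FPKM in uninjured retina, while the whole gene had 7.19 FPKM at 4 dpi, so a transcript stands beside a gene there.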

How the results depend on the processing

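List medians changed direction in 0 of the 28 lists recomputed with either pseudocount, with any value above 0 and with transcripts summed by gene, in 0 of the 27 left with at least 1 FPKM in both groups, and in 0 of the 13 left for p of at most 0.01 in the authors' deposited table. Most lists had all their members in 1 direction, and the median of such a list could not change direction in any of these settings. The 113 named transcripts in both groups were recomputed with the 2 pseudocounts, where 0 changed direction, which follows from the sign of the difference between the 2 values. The median log2 change of transcripts in both groups, 2.36 for higher and -1.97 for lower ones, was 1.90 and -1.72 with a pseudocount of 1 FPKM, 2.43 and -1.99 with 0.01 FPKM, 2.15 and -1.93 with at least 1 FPKM in both groups, 2.47 and -1.98 with any value above 0, and 2.97 and -2.55 for p of at most 0.01 in the authors' deposited table. With the listed transcripts of a gene summed, the higher median was 2.35. With at least 1 FPKM asked of both groups, 258 higher and 70 lower transcripts were on/off. At p of at most 0.01, 107 higher and 65 lower transcripts were left in both groups and 72 and 5 on/off, and 12 of the 13 lists that kept at least 3 such transcripts had a positive median, against 21 of 28 as reported. With at least 1 FPKM in both groups 20 of 27 lists did, and with any value above 0, 22 of 29. No paired analysis was possible because each group has 1 sample and the labels give no replicate numbers, and for the same reason no sample could be left out. Depth is unknown, so what could be seen at low FPKM cannot be given.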
